A study of Rattus norvegicus with 13 samples.

Results

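Kruppel-like factors (KLFs) were examined by their RNA levels in rat articular chondrocytes exposed to glucosamine, IL-1β or both. Included were all probe sets that the platform annotation assigns to a single gene named Klf2, Klf3, Klf4, Klf5, Klf6, Klf9, Klf10, Klf13 or Klf15. These were 24 probe sets of 31042 on the array, and 9 genes of 14217 with a probe set of their own. All 9 genes passed the filter on low signals, as did 13748 genes in all. Cells were isolated from femoral head cartilage of Wistar rats (male, aged 2 months), and the second-passage cultures of all 4 groups were seeded from 1 pool of cells in medium with fetal bovine serum. Control cultures received neither agent (n = 3). The glucosamine group received 20 mM glucosamine for 20 hours (n = 2). IL-1β was given at 10 ng/ml over 14 hours to a group without glucosamine (n = 4), and the last group received glucosamine at 20 mM for 20 hours with IL-1β at 10 ng/ml added after the first 6 hours (n = 4). Each Affymetrix Rat Genome 230 2.0 array held RNA of 1 flask. Because the flasks share a pool, the p-values measure the spread between flasks and not between animals, and each comparison with glucosamine alone rests on 2 arrays.

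KLFs are transcription factors with C2H2 zinc fingers at their carboxyl end that bind CACCC and GC-rich boxes in promoters, and the parts outside the fingers differ among members and set whether a member activates or represses. Klf2, Klf4, Klf5 and Klf6 are mainly activators, Klf9, Klf10 and Klf13 recruit the Sin3a corepressor, and Klf3 recruits the C-terminal binding protein (CtBP). Several members respond quickly to cytokines, hormones and mechanical load, and in cartilage Klf5 is known as an activator of Mmp9, a gelatinase.

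The cells expressed cartilage genes. Control arrays gave a signal of 3819 ± 346 (SD, n = 3) for Col2a1, the collagen of hyaline cartilage, and 1764 ± 115 (SD, n = 3) for Col9a1. Fibroblast genes were high as well, with 3588 ± 311 (SD, n = 3) for Col1a1. Of 6 chondrocyte markers 5 had a probe set, and their summed signal was 7075 to 7975 in control cultures, 5187 to 5428 with glucosamine, 3747 to 4589 with IL-1β and 3972 to 4848 with both. Each of the 5 had a lower mean with IL-1β than in control cultures. Col2a1, the highest of them, stood at 2812 ± 295 (SD, n = 4) with IL-1β. Acan went from 240 ± 13.7 (SD, n = 3) in control cultures to 35.1 ± 3.52 (SD, n = 4) there. The paper lists a much lower signal for collagen type II, with a steeper fall with IL-1. Sox9 is not analysed here. The replicate d arrays of the IL-1β group and of the group with both agents stood apart from the other 11. Their 1st percentile of signal was -36.8 to -31.0, against -6.47 to -4.81, and 25372 to 25519 of their probe sets lay above the floor of 5.71 set on low signals, against 22130 to 23489. A change in the RNA of a pool of cells can come from fewer cells of a type or from less RNA per cell, and these cannot be told apart here.

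The promoters of 3 members are shown, chosen after their values were seen, because they stand for 3 responses: Klf15 rose with IL-1β alone, Klf6 rose with glucosamine with or without IL-1β, and Klf3 fell with IL-1β alone and held the most CACCC letters. The windows run from 250 bases before to 50 bases after the annotated start in RefSeq (build GRCr8), at chr4:124522765-124523064 on the plus strand for Klf15, chr17:69458429-69458728 on the minus strand for Klf6 and chr14:43850777-43851076 on the minus strand for Klf3. Capitals mark matches, on either strand, to the CACCC box (CACCC, or its complement GGGTG), the GC box (GGGCGG) and the E box (CACGTG).
Klf15: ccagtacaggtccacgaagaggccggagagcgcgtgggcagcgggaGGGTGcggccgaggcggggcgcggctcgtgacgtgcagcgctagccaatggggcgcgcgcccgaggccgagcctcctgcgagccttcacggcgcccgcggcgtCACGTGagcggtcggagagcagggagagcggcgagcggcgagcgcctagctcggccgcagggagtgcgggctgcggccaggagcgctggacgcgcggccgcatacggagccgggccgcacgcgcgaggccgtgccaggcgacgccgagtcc
Klf6: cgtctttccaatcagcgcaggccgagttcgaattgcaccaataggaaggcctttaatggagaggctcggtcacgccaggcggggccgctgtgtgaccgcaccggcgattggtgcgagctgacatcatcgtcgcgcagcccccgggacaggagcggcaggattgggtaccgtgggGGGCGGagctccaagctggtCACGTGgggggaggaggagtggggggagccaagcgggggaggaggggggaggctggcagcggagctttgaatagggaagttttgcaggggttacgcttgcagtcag
Klf3: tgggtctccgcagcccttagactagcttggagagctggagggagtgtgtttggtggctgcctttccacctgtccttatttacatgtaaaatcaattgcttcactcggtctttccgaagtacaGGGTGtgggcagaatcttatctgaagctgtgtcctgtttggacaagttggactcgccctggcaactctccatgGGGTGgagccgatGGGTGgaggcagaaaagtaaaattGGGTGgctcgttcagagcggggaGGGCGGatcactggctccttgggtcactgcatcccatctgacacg

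The 3 windows differed in the letters they held. Klf3 had 4 CACCC boxes, a number reached or passed by 3.07% of the 33469 windows in the table, and 1 GC box. Klf15 had 1 CACCC box and 1 E box, and Klf6 had 1 GC box and 1 E box but no CACCC box. Over all windows, 54.9% held a CACCC box, 33.1% a GC box and 6.42% an E box. No marked matches overlapped. Of the members, 6 of 9 had a window (not Klf2, Klf10 or Klf13). Klf5 held 2 CACCC boxes, Klf9 held 1 CACCC box and 1 AP-1 site (TGANTCA, found in 7.33% of windows), and Klf4 held no match. The cAMP response element (TGACGTCA, 1.83% of windows) and the NF-κB consensus (4.18% of windows) were searched on both strands too and had no match in the 6 windows. A match is a description of letters and not a binding site.

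IL-1β alone and glucosamine alone each changed 5 of the 9 members, and Klf2 and Klf9 were among the 5 both times. With IL-1β alone, 3 of 9 members were higher than in control cultures (Klf15, Klf13 and Klf9) and 2 were lower (Klf2 and Klf3). Over all genes tested, 15.5% were called higher and 15.3% lower in that comparison at an adjusted p under 0.05. With glucosamine alone, 4 were higher (Klf2, Klf6, Klf4 and Klf9) and 1 was lower (Klf5), beside 10.4% and 9.37% of all genes. After quantile normalization these numbers were 3 higher and none lower, since Klf9 and Klf5 no longer passed. The 5 members also fell to 1, Klf2, without glucosamine replicate b, and to 3 without any 1 control array, glucosamine replicate a or replicate a with both agents, Klf5 and Klf9 being lost each time. With both agents, 4 were higher than in control cultures (Klf2, Klf4, Klf6 and Klf3) and 1 was lower (Klf5), beside 16.6% and 14.7%. Without the 2 replicate d arrays, the members called were 4 for IL-1β, 5 for glucosamine and 5 for both agents. Members were selected with earlier results of these data known, so these counts describe the 9 genes only.

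Where glucosamine was present, IL-1β moved no member past the threshold. Both agents against glucosamine gave 0 called members of 9, beside 1.45% of all genes higher and 1.13% lower. At an unadjusted p under 0.05 in limma, 4 members differed in this comparison, and the analysis of variance with Tukey's test that the methods name called 2 (Klf4 higher, Klf2 lower). Both agents against IL-1β alone gave 4 members higher (Klf2, Klf4, Klf6 and Klf3) and 3 lower (Klf5, Klf15 and Klf9), beside 15.8% and 14.8% of all genes. The response to IL-1β itself differed with and without glucosamine, as an interaction in the same model, for 4 members, 2 with a positive term (Klf2 and Klf3) and 2 with a negative term (Klf9 and Klf15). Without the replicate d arrays, these 3 comparisons called 1, 7 and 4 members. Over all genes, 5.11% had a called positive and 6.68% a called negative term. These comparisons share arrays, so their values are not independent of each other.

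**Figure D1:**
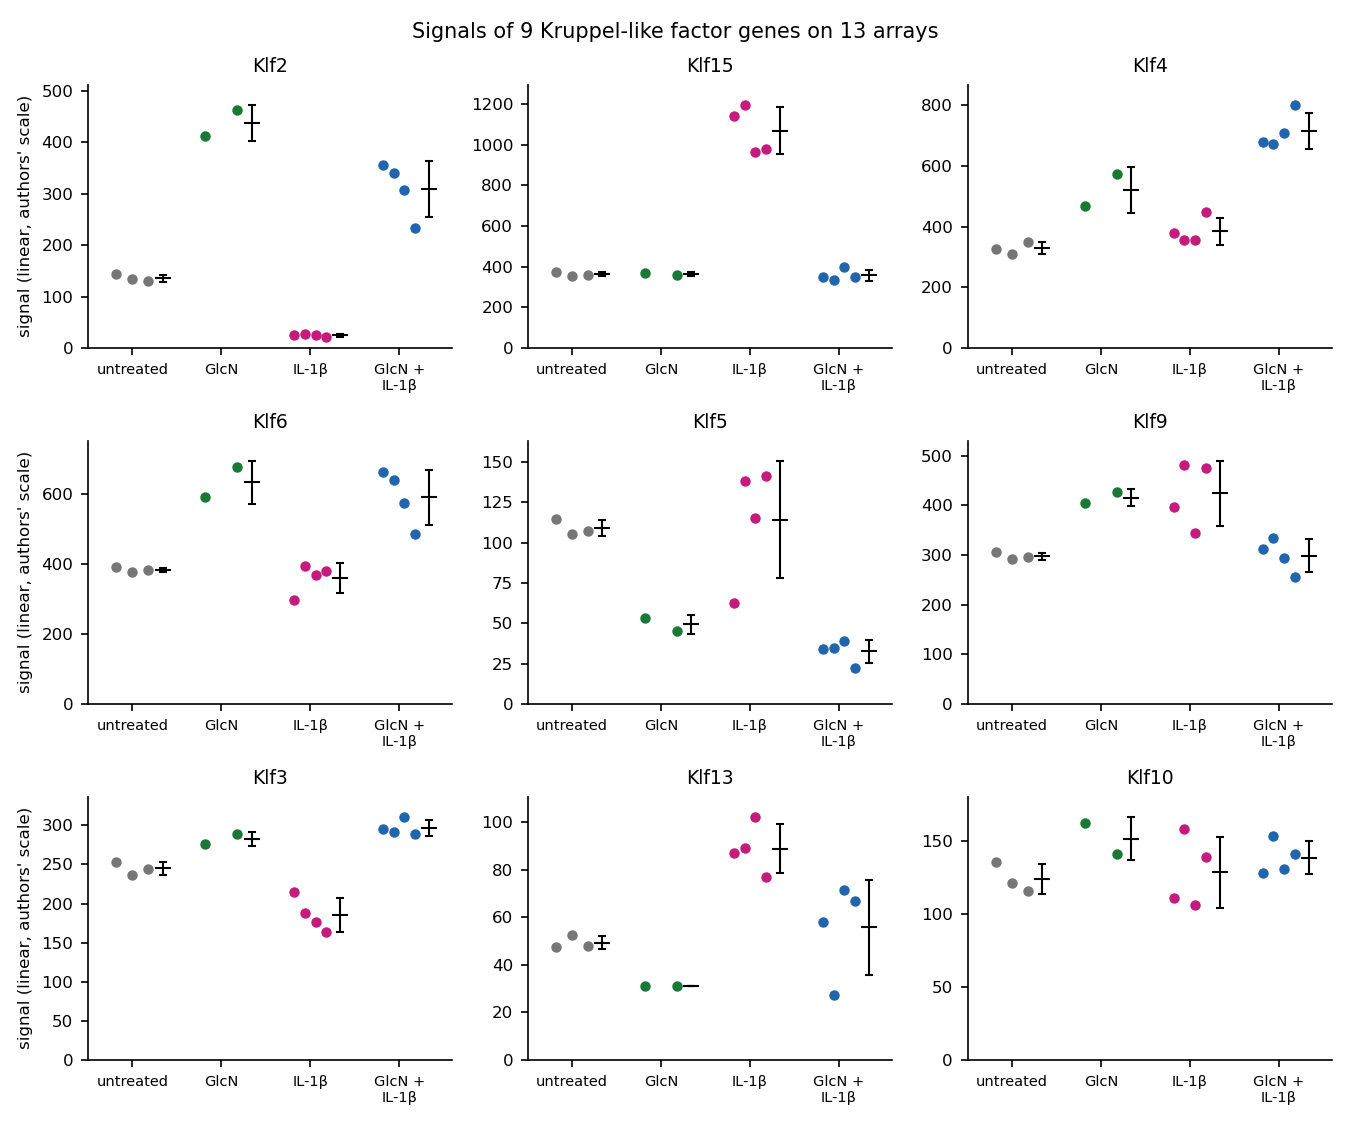
Signal (vertical axes, linear, on the scale set by the authors) of the representative probe set of each of the 9 genes on all 13 arrays. Each point is 1 array, and bars give mean ± SD per group (untreated n = 3, GlcN for glucosamine n = 2, IL-1β n = 4, both n = 4). Klf2 is lowest and Klf15 highest in the IL-1β group, without overlap with the other groups.

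**Figure D2:**
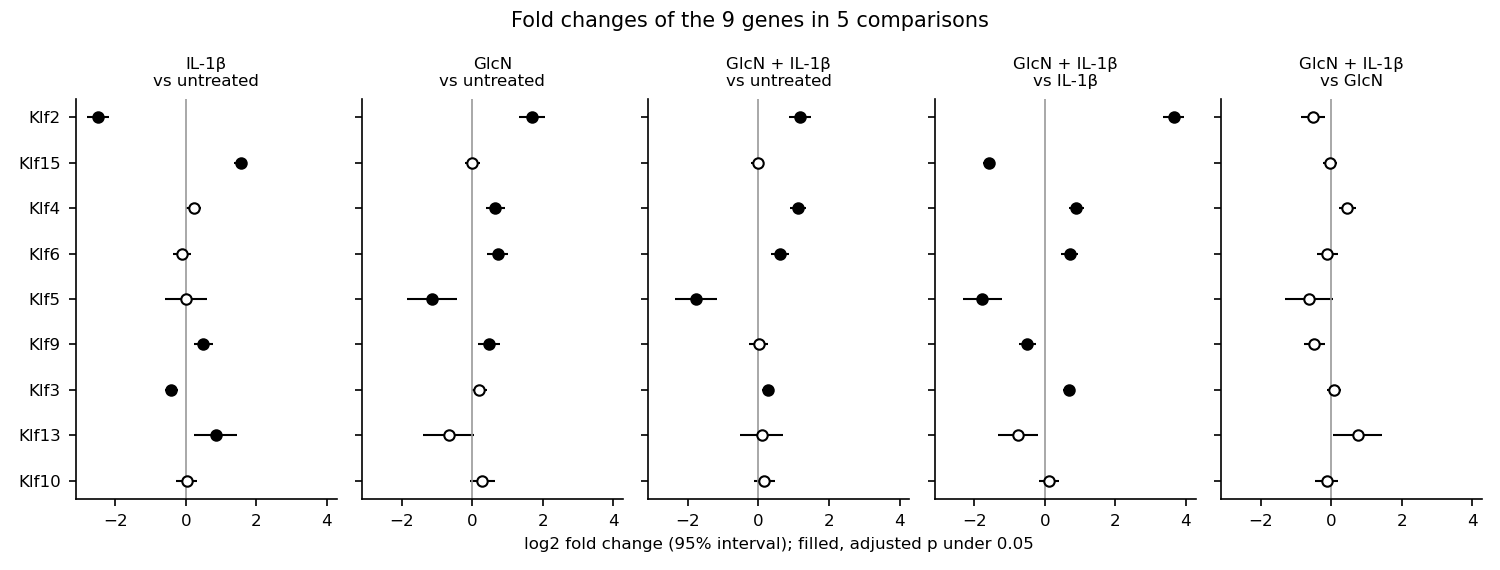
Log2 fold change with its 95% interval (horizontal axis) for the 9 genes (rows) in 5 comparisons (panels, GlcN for glucosamine). Filled points passed an adjusted p under 0.05 in limma, and none is filled in the panel of both agents against glucosamine.

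Among the activators, Klf2 moved most. Klf2 is induced in endothelium by laminar flow and represses inflammatory genes there. Its signals were 144, 133 and 129 on the control arrays and 412 and 462 with glucosamine. With IL-1β they were 25.4, 27.3, 24.5 and 20.5, and with both agents 356, 341, 307 and 233. The 4 groups did not overlap, with IL-1β alone lowest, then control, then both agents, then glucosamine. On the log2 scale, IL-1β lowered Klf2 by -2.48 ± 0.14 (SE, adjusted p = 1.3e-07), a level 5.57-fold below that of control cultures. Glucosamine raised it 3.22-fold (log2 1.69 ± 0.17, adjusted p = 4.1e-05), and in cultures with both agents it stood 2.26-fold above control (log2 1.17 ± 0.14, adjusted p = 7.7e-05).

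With IL-1β present, glucosamine made a 12.6-fold difference in Klf2 (log2 3.65 ± 0.13, adjusted p = 9.4e-09). With glucosamine present, IL-1β made a log2 difference of -0.52 (95% interval -0.87 to -0.16), which did not pass the threshold (adjusted p = 0.23). The fall with IL-1β was thus smaller with glucosamine than without it, by 1.96 ± 0.21 on the log2 scale (interaction, adjusted p = 1.3e-04). These calls held under all alternatives run for them, except that the interaction was lost (adjusted p = 0.108) when the probe sets of a gene were averaged. The endothelial cell markers with a probe set, 4 of 5 listed, had a summed signal of 46.7 to 64.2 in control cultures and 55.2 to 55.5 with glucosamine. It was 91.8 to 197 with IL-1β and 54.8 to 148 with both. Of these markers, Vwf lay at or under the floor on all control arrays, and Pecam1, Kdr and Tek had control means of 6.53, 11.1 and 36.9. The part of these markers in the result for Klf2 was not tested.

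The other 4 probe sets of Klf2 gave a mixed picture. The sets 1386041_a_at and 1394068_x_at, both made from 1 sequence record and the latter with a suffix (_x) for probes that may bind other transcripts, had control signals of 10.96 to 20.3 and signals with glucosamine of 41.7 to 145. In 1386041_a_at the fall with IL-1β was called (adjusted p = 0.0054), and all 4 of its IL-1β arrays were at or under the floor, so the fall was at least 3.03-fold. In 1394068_x_at the fall did not pass (log2 -1.16, adjusted p = 0.061). Both sets were called higher with glucosamine, with both agents against control and with both agents against IL-1β. The interaction was called in neither, at log2 0.89 for 1386041_a_at (adjusted p = 0.51) and 0.62 for 1394068_x_at (adjusted p = 0.84). Both values are lower bounds, since 3 of 4 IL-1β arrays of 1394068_x_at were at or under the floor too. The set 1375248_at was called in no comparison, and its replicate d arrays stood at 489 with IL-1β and 378 with both agents, against 65.8 to 132 on the other 11 arrays. The set 1386040_at had no signal above 23.6 and was not called.

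**Figure D3:**
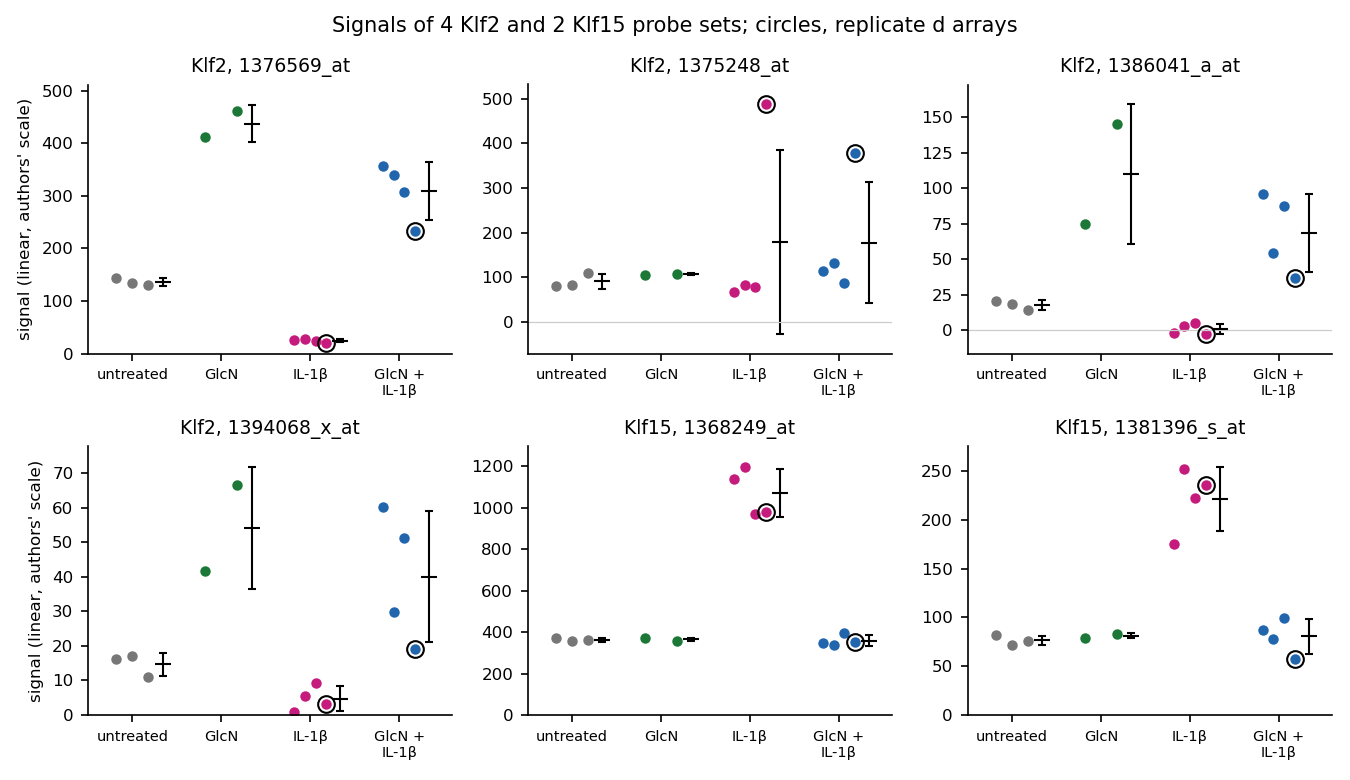
Signal (vertical axes, linear, on the scale set by the authors) of 4 Klf2 and 2 Klf15 probe sets on all 13 arrays, by group, with mean ± SD. Black circles mark the replicate d arrays, which are far above the others only in the Klf2 set 1375248_at.

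Klf4, which shares many targets with Klf2 in endothelium and is one of the factors used to reprogram cells to pluripotency, responded to glucosamine with or without IL-1β. Its signals were 326, 309.7 and 350.2 in control cultures, 467 and 573 with glucosamine, 379, 356, 355 and 449 with IL-1β, and 678, 671, 707 and 801 with both agents. All 4 arrays with both agents were above every other array, and both glucosamine arrays were above every control and IL-1β array. Glucosamine raised Klf4 1.58-fold (log2 0.66 ± 0.12, adjusted p = 0.0032), and both agents raised it 2.17-fold over control (log2 1.12 ± 0.10, adjusted p = 8.0e-06). The call for glucosamine was lost without glucosamine replicate b (adjusted p = 0.0579). Against IL-1β alone, both agents gave 1.86-fold more (adjusted p = 2.9e-05). IL-1β by itself gave a log2 difference of 0.22 (95% interval 0.00 to 0.45, adjusted p = 0.155) and, with glucosamine present, of 0.46 (95% interval 0.21 to 0.71, adjusted p = 0.090). The latter passed without the 2 replicate d arrays (adjusted p = 0.0499). The interaction was 0.24 ± 0.15 (adjusted p = 0.57), so a different response to IL-1β with glucosamine was not shown for this gene.

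Klf6, an early-response activator also known as a tumour suppressor, was higher wherever glucosamine was given. Signals were 390.2, 378 and 382 in control cultures and 590.4 and 677 with glucosamine. They were 298, 395, 369 and 379 with IL-1β and 662, 639, 574 and 485 with both agents. All 6 arrays with glucosamine lay above all 7 without it, and the IL-1β arrays overlapped with the controls. Glucosamine raised Klf6 1.65-fold (adjusted p = 0.0042), and both agents raised it 1.53-fold over control (adjusted p = 0.0022) and 1.64-fold over IL-1β (adjusted p = 5.0e-04). The call for glucosamine was lost without glucosamine replicate b (adjusted p = 0.064). Under the methods' analysis of variance with Tukey's test, Klf6 was called in no comparison. The interaction was -0.01 ± 0.18 on the log2 scale (95% interval -0.40 to 0.38, adjusted p = 1). Its probe sets disagreed in part. The set 1395557_at changed in the same way, while 1387060_at was called in IL-1β against control only (log2 0.48, adjusted p = 0.034), with 398 to 651 on the IL-1β arrays and 351 to 383 on the control arrays.

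Klf5, which promotes proliferation in smooth muscle and epithelium, was lower wherever glucosamine was given. Control signals were 115, 105 and 107, and glucosamine signals 53.6 and 45.3. With IL-1β they were 62.6, 138, 115 and 141, and with both agents 34.4, 34.8, 39.2 and 22.3. All 6 arrays with glucosamine lay below all 7 without it, and IL-1β replicate a was the lowest of its group. Glucosamine gave a 2.21-fold lower level (log2 -1.15 ± 0.33, adjusted p = 0.035), and both agents a level 3.40-fold below control (adjusted p = 4.8e-04) and 3.41-fold below IL-1β (adjusted p = 2.9e-04). The call for glucosamine alone was lost without any 1 of the 3 control arrays, either glucosamine array or replicate a of the group with both agents, with adjusted p up to 0.233 over all alternatives. Under the methods' analysis of variance with Tukey's test, Klf5 was called in no comparison. The difference between IL-1β and control was 0.00 (log2, 95% interval -0.60 to 0.60, adjusted p = 1). A second set, 1368363_at, was called in the same 3 comparisons (log2 -1.27, -1.34 and -1.82), and another, 1385961_at, in the 2 that involve both agents. With IL-1β alone, 1368363_at had 67.2 to 96.6 against 51.5 to 59.5 in control cultures. The set 1385961_at had 19.9 to 56.4 there, against 24.2 to 27.3. Neither difference was called.

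Smooth muscle markers, of which all 3 listed had a probe set, had a summed signal of 580 to 602 in control cultures, 261 to 383 with glucosamine, 114 to 209 with IL-1β and 84.7 to 286 with both. The range with glucosamine lay below that of the controls, as did the range with IL-1β alone. Their part in the result for Klf5 was not tested.

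Klf15 had a pattern unlike that of Klf2, Klf4, Klf5 or Klf6. It is induced by glucocorticoids and controls amino acid breakdown and glucose production in liver and muscle. The control signals were 373, 355 and 362, and the glucosamine signals 370.4 and 358. With IL-1β they reached 1139.7, 1197, 966 and 977, and with both agents they were 348, 335, 396 and 349.6. The 4 IL-1β arrays stood far above the other 9, which overlapped with each other. IL-1β raised Klf15 2.94-fold (log2 1.55 ± 0.08, adjusted p = 7.7e-08). Both agents against IL-1β gave a level 2.99-fold lower (log2 -1.58 ± 0.08, adjusted p = 6.4e-08).

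With glucosamine, no change of Klf15 by IL-1β was detected. The log2 difference there was -0.03 with a 95% interval from -0.24 to 0.18 (adjusted p = 0.94). The interaction was -1.58 ± 0.13 (adjusted p = 1.2e-05). Glucosamine alone differed from control by 0.01 (95% interval -0.21 to 0.22, adjusted p = 1). All 3 calls held under all alternatives run for them. The second set, 1381396_s_at, gave the same 3 calls, with signals of 72.2 to 81.5 in control cultures, 176 to 253 with IL-1β and 57.3 to 99.5 with both. The last, 1381395_at, had no signal above 22.1 and was not called. These sets were made from another sequence record than the first.

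Some markers of other cell types also had higher signals on the IL-1β arrays. The summed signal of the 3 adipocyte markers was 21.4 to 28.1 in control cultures, 29.3 to 42.1 with glucosamine, 589 to 1052 with IL-1β and 93.1 to 185 with both agents. Nearly all of it was Fabp4, a fatty acid carrier that macrophages express too, at 817 ± 180 (SD, n = 4) with IL-1β, whereas Adipoq and Plin1 had group means of 11.04 and 11.2 there. The 4 leukocyte and macrophage markers summed to 8.96 to 13.6 in control cultures, 38.8 to 48.5 with glucosamine, 176 to 237 with IL-1β and 50.3 to 76.6 with both. Most of this was Cd68 (188 ± 39.3, SD, n = 4, with IL-1β), while Ptprc, the pan-leukocyte marker, had a mean of 8.18 and Itgam lay at or under the floor on all IL-1β arrays. The part of these markers in the result for Klf15 was not tested.

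**Figure D4:**
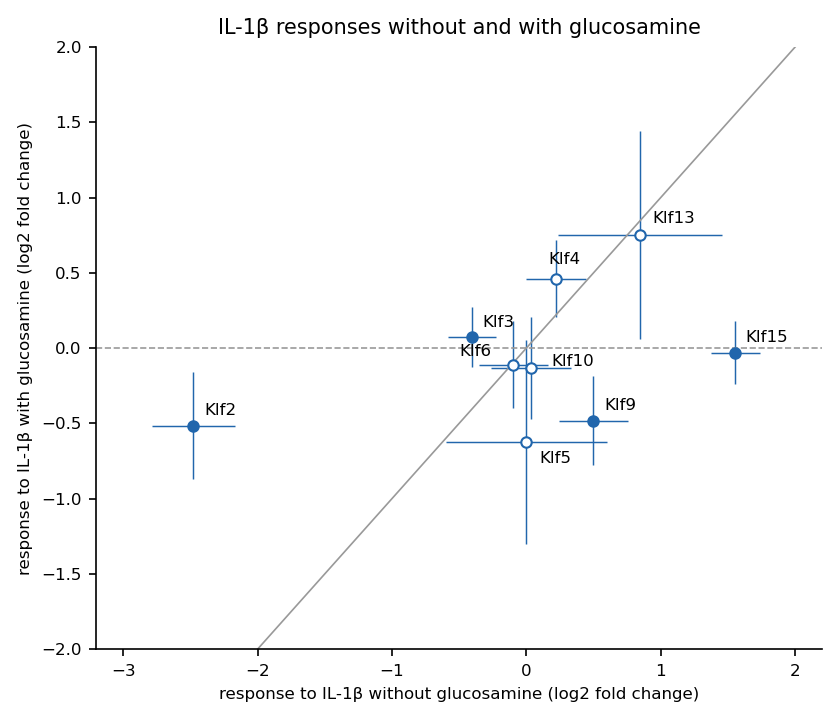
Log2 fold change by IL-1β without glucosamine (horizontal axis) and with glucosamine (vertical axis) for the 9 genes, with 95% intervals. On the solid line both responses are equal, and filled points have a called interaction. Klf2 and Klf15 lie farthest from the line, at opposite ends.

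Of the members that recruit Sin3a, Klf9 was higher with either agent but not with both. Klf9 is induced by thyroid hormone and glucocorticoids. Its signals were 306, 292 and 296 in control cultures, 404 and 428 with glucosamine, 396, 482, 345 and 475 with IL-1β, and 313, 334, 293 and 256 with both agents. Arrays with 1 agent were all above those with none or both, and the latter overlapped. IL-1β raised Klf9 1.41-fold (log2 0.50 ± 0.12, adjusted p = 0.0085), and glucosamine raised it 1.40-fold (log2 0.48 ± 0.14, adjusted p = 0.041). Both agents gave 0.00 against control (95% interval -0.26 to 0.26, adjusted p = 1) and a level 1.41-fold below IL-1β (adjusted p = 0.0057). The interaction was -0.98 ± 0.18 (adjusted p = 0.0046). The call for glucosamine alone passed under 15 of 28 alternatives and was lost without any 1 control array, without either glucosamine array, and without replicate a or c of the group with both agents. The 3 other calls of Klf9 were lost when its probe sets were averaged (adjusted p 0.34 to 0.45). Under the methods' analysis of variance with Tukey's test, which was not run for the interaction, Klf9 was called in no comparison. The other 2 probe sets of Klf9, with no signal above 33.4, were not called.

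Klf13, a factor that turns on Ccl5 in T cells, gave signals of 47.4, 52.4 and 48.0 in control cultures and 31.1 on both glucosamine arrays. With IL-1β these were 87.2, 89.3, 102 and 76.8, and with both agents 58.0, 27.1, 71.3 and 67.0. The IL-1β arrays were above all others, and the arrays with both agents spread from below the glucosamine arrays to above the controls. IL-1β raised Klf13 1.80-fold (log2 0.85 ± 0.28, adjusted p = 0.046). This call is close to the threshold and was lost under 18 of 28 alternatives, among them the removal of any 1 control, glucosamine or IL-1β array or of replicate a of the group with both agents, with adjusted p up to 0.131. Both agents against IL-1β gave log2 -0.76 (adjusted p = 0.055). With the replicate letter as a block the difference passed (adjusted p = 0.049), as it did under 10 alternatives in all. Pairing of the arrays by letter was not shown in this comparison. Without replicate b with both agents, the lowest array of its group, glucosamine against control (log2 -0.66, adjusted p = 0.012), both agents against glucosamine (log2 1.07, adjusted p = 0.0052) and both agents against IL-1β (log2 -0.44, adjusted p = 0.029) passed.

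Klf10, induced by TGF-β, did not pass the threshold in any comparison. Its signals ranged from 116 to 136 in control cultures, 141 to 163 with glucosamine, 106 to 158 with IL-1β and 129 to 154 with both agents. The widest difference was that of glucosamine, at log2 0.29 (95% interval -0.07 to 0.64, adjusted p = 0.35).

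Klf3, the CtBP-recruiting repressor, fell with IL-1β alone and was above control with both agents. Signals were 253, 237 and 244 in control cultures and 276 and 289 with glucosamine. With IL-1β they were 215, 188, 176 and 164, and with both agents 295, 292, 311 and 288. All IL-1β arrays were below all others, and the 6 arrays with glucosamine were above the controls. IL-1β gave a level 1.32-fold lower (log2 -0.40 ± 0.08, adjusted p = 0.0027), and this call held under all alternatives. Both agents gave 1.21-fold more than control (adjusted p = 0.025) and 1.60-fold more than IL-1β (adjusted p = 3.8e-05). The interaction was 0.48 ± 0.12 (adjusted p = 0.032) and passed under 14 of 26 alternatives. Both it and the comparison of both agents with control were lost without any 1 control array and without replicate a or c of the group with both agents. The interaction was also lost without either glucosamine array and without IL-1β replicate b or c. The set 1378332_at gave the same calls for IL-1β, for both agents against IL-1β and for the interaction, and 1393150_at was called in none. In 1378332_at, however, both glucosamine arrays (164 and 167) lay below the controls (181 to 190). Its arrays with both agents (171 to 212) overlapped with the controls.

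Over the 13 arrays, log2 signals of Klf2 and Klf3 correlated with r = 0.95, those of Klf2 and Klf15 with r = -0.93 and those of Klf4 and Klf5 with r = -0.90. The arrays share 4 treatments, so these values describe the group pattern and carry no test. The 3 members with the widest range of group means were Klf2 (4.17 log2), Klf5 (1.77) and Klf15 (1.58). Among 11841 other genes above the floor on at least 7 arrays, Klf2 was most alike to Anpep, an aminopeptidase (r = 0.99), Tmbim1 (r = 0.99) and Rftn2 (r = 0.99). Anpep had signals of 386 ± 12.2 (SD, n = 3) in control cultures, 902 ± 85.7 (SD, n = 2) with glucosamine, 117 ± 14.0 (SD, n = 4) with IL-1β and 650.3 ± 102 (SD, n = 4) with both, the same order as Klf2. The genes most alike to Klf5 were Rfc4, a subunit of the replication clamp loader (r = 0.96), Dut, which removes dUTP (r = 0.96), and Gadd45b (r = 0.96). For Klf15 they were Cbl, a ubiquitin ligase (r = 0.99), Slc47a1, an organic cation exporter (r = 0.99), and Csf3, a granulocyte growth factor (r = 0.99).

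Genes around the family were read in the same fit. Of 17 other KLF and SP genes listed, 8 were tested. With IL-1β, 4 rose (Klf1 by log2 1.40, Klf12 by 1.12, Klf16 by 1.10 and Sp1 by 0.48) and 1 fell (Klf7, log2 -1.36), with a list median of 0.53 beside 0.09 for all genes, of which 15.5% rose and 15.3% fell. Klf1 and Klf7 are at low signals, with control means of 10.5 for Klf1 and 33.3 for Klf7. Glucosamine called none of the 8 (list median 0.12, all genes 0.00), beside 10.4% of all genes higher and 9.37% lower. With both agents 3 rose and 1 fell against control, beside 16.6% and 14.7% of all genes. The interaction called none, beside 5.11% of all genes with a positive and 6.68% with a negative term. Against IL-1β, both agents lowered 1, Sp1 (log2 -0.32, adjusted p = 0.0035), and raised none, beside 14.8% and 15.8% of all genes. The 5 called with IL-1β became 3 without control replicate b or c, and the 4 called with both agents against control became 1 without any 1 control array and 2 without any 1 array with both agents. Without replicate d with both agents, glucosamine called 1, both agents against IL-1β 2 and the interaction 2 of the 8. Under the methods' analysis of variance with Tukey's test, the counts for IL-1β, both agents against control and both agents against IL-1β were 0.

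The MEK5, ERK5 and MEF2 route is known to induce Klf2 and Klf4 in endothelium. Of its 7 listed genes 6 were tested. With IL-1β, 3 rose, among them the transcription factors Mef2a (log2 0.93) and Mef2d (0.72), and 2 fell, with Mef2c at -1.43 (list median 0.04). With glucosamine, 2 rose, the kinase gene Map3k3 (0.51) and Mef2a (0.75), and Mef2c fell (-0.66), with a list median of 0.33. With both agents against control, 2 rose and 1 fell (list median 0.34). Medians over all genes were 0.09, 0.00 and 0.13 in these 3 comparisons. Of all genes, 15.5%, 10.4% and 16.6% rose in them, and 15.3%, 9.37% and 14.7% fell. The 3 calls for glucosamine became 1 without glucosamine replicate a, and the 3 for both agents became 6 without both replicate d arrays. The 5 for IL-1β became 3 under the methods' analysis of variance with Tukey's test. Mapk7, which encodes ERK5, was not called in any comparison of the main model. It was among the 6 called with both agents against control without both replicate d arrays.

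Of 12 corepressor and coactivator genes, 1 rose and 1 fell with IL-1β (Ep300 0.38 and Kat2b -0.72), and 1 rose and 3 fell with glucosamine, beside 15.5% and 15.3% of all genes with IL-1β and 10.4% and 9.37% with glucosamine. Ctbp1, the partner of Klf3, was among the latter calls as the one that rose (0.52, adjusted p = 0.0034), and Hdac1 fell most (-0.62). Sin3a was not called with either agent. List medians were -0.05 and 0.07, those of all genes 0.09 and 0.00. The 2 calls for IL-1β became 1 without control replicate a, 4 without IL-1β replicate a, 5 without replicate d with both agents and 6 after quantile normalization. The 4 for glucosamine became 2 without glucosamine replicate b and 8 in the fit to both groups alone. Under the methods' analysis of variance with Tukey's test, each of these counts was 1.

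Of 7 tested ubiquitin ligases and deubiquitinases that act on KLF proteins, 3 rose with IL-1β, led by Smurf1 (1.31, adjusted p = 2.5e-04), and 1 fell (Wwp1, -0.33), with a list median of 0.40 beside 0.09 for all genes, of which 15.5% rose and 15.3% fell. With glucosamine, 1 fell (Wwp1, -0.39) and none rose, with a list median of 0.29 beside 0.00 for all genes, of which 10.4% rose and 9.37% fell. The 4 calls for IL-1β became 2 without control replicate a, and the 1 for glucosamine was lost without control replicate a or b or either glucosamine array. Under the methods' analysis of variance with Tukey's test, both counts were 0.

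The glucocorticoid receptor gene and targets of the receptor were listed together because Klf9 and Klf15 belong to such targets. Of 7 tested, 2 rose with IL-1β, the kinase Sgk1 (1.51) and the phosphatase Dusp1 (0.67). Both rose with glucosamine too (Sgk1 1.18, Dusp1 1.37), where Cebpd fell (-0.99). Of all genes, 15.5% rose and 15.3% fell with IL-1β, and 10.4% rose and 9.37% fell with glucosamine. The receptor gene Nr3c1 was not called in any comparison. Fkbp5, a widely used readout of the receptor, had 0.32 with IL-1β (adjusted p = 0.094). The list median was -0.01 with IL-1β and 0.05 with glucosamine, beside 0.09 and 0.00 for all genes. The 2 calls for IL-1β and the 3 for glucosamine each became 1 under the methods' analysis of variance with Tukey's test.

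With both agents against control, 3 of the 7 rose and none fell, with a list median of 0.42 beside 0.13 for all genes. Of all genes, 16.6% rose and 14.7% fell in that comparison. The 3 of the list were Dusp1 (1.45), Sgk1 (1.29) and Tsc22d3, the glucocorticoid-induced leucine zipper. Tsc22d3 went from 317 ± 14.2 (SD, n = 3) in control cultures to 574 ± 94.0 (SD, n = 4) with both agents (log2 0.84, adjusted p = 9.9e-04) and stood at 319.6 ± 61.3 (SD, n = 4) with IL-1β. Against IL-1β, where both agents lowered Klf9 and Klf15, 3 of the list rose and Fkbp5 fell (-0.56). The 3 were Cebpd (0.94), Tsc22d3 (0.85) and Dusp1 (0.78). The list median was 0.22 beside 0.03 for all genes, of which 15.8% rose and 14.8% fell. Under the methods' analysis of variance with Tukey's test, 1 gene of the list was called against control and 1 against IL-1β.

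Of 22 genes known as KLF targets in other cell types 21 were tested. With IL-1β, 9 rose and 4 fell, with a list median of 0.73 beside 0.09 for all genes, of which 15.5% rose and 15.3% fell. Mmp9 rose at least 382-fold and Ccl5 at least 53.7-fold, since all control arrays of both were at or under the floor, and Mmp13, a collagenase, rose by log2 4.06. Thrombomodulin (Thbd), which Klf2 activates in endothelium, went from 420.3 ± 6.49 (SD, n = 3) to 1117 ± 102 (SD, n = 4) with IL-1β (log2 1.41, adjusted p = 5.0e-08), where Klf2 fell. Endothelin 1 (Edn1), which Klf2 represses there, went from 169 ± 5.82 (SD, n = 3) in control cultures to 39.7 ± 2.69 (SD, n = 2) with glucosamine and 85.0 ± 23.1 (SD, n = 4) with IL-1β, both called lower.

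With glucosamine, 3 of the 21 rose (Mmp13, Mmp3 and Lgals3) and 3 fell (Edn1, Vcam1 and Cdkn1b), with a list median of 0.07 beside 0.00 for all genes, of which 10.4% rose and 9.37% fell. Bcat2, the amino acid aminotransferase that Klf15 activates in muscle, fell with IL-1β (log2 -0.62, adjusted p = 0.033), where Klf15 rose. With both agents against IL-1β, 3 rose and 7 fell (list median -0.07, all genes 0.03), beside 15.8% and 14.8% of all genes. The steepest falls were those of Mmp9 (log2 -5.92) and Ccl5 (-5.25). In the interaction, 3 had a positive and 7 a negative term, beside 5.11% and 6.68% of all genes. Of all genes, 1.45% were higher and 1.13% lower with both agents against glucosamine. There, both agents raised 3 of the list (Vcam1 by 1.45, Mmp3 by 1.10 and Mmp13 by 0.86) and lowered Cdkn1b (-0.45). These 4 calls became 2 without glucosamine replicate a, 1 without glucosamine replicate b and 0 in the fit to both groups alone.

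**Figure D5:**
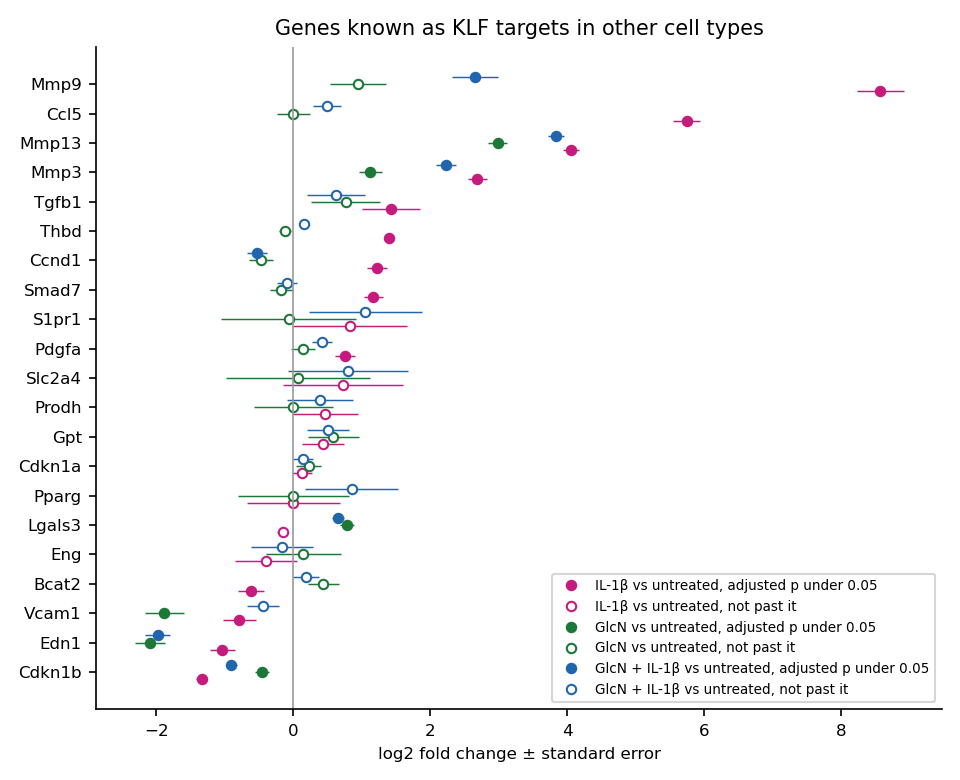
Log2 fold change ± standard error (horizontal axis) against untreated cultures of 21 genes known as KLF targets in other cell types (rows), for IL-1β, glucosamine (GlcN) and both agents. Filled points passed an adjusted p under 0.05, and the values of Mmp9 and Ccl5 with IL-1β and with both agents are lower bounds because all their control arrays are at or under the floor. The same holds for the control arrays of Prodh and Pparg, and their values, like those of Mmp9 and Ccl5 with glucosamine, rest on arrays at the floor in both groups.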

How the data were processed

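RNA was measured on 13 Affymetrix arrays in 4 groups taken from the sample titles. The values are the intensities that the authors deposited, 1 per probe set and array. The methods name Microarray Suite (version 5) for reading the scans and Probe Profiler for turning probe intensities into signals scaled globally to 100, while the submitters' processing notes name MAS5. Such estimates downweight probe pairs judged uninformative, and some lie below 0. Of 31099 probe sets, 57 controls were left out. Lower signals were raised to a floor of 5.71, the 25th percentile over all arrays, before taking log2, and the 29263 probe sets above the floor on at least 1 array were tested. Array number and the floor limit the precision. The annotation gave 20826 probe sets 1 gene, 436 several and 9780 none.

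In R 4.3.3, limma 3.58.1 (lmFit, then eBayes with its variance trend, on 9 residual degrees of freedom) fitted the 4 groups in 1 model, with 6 2-sided contrasts and Benjamini-Hochberg adjustment over all tested probe sets. A gene is represented by its probe set with the highest mean log2 signal. Named were all members, the called genes of each list with the largest changes, the 3 genes most alike to each of the 3 members with the widest range, and the markers. Thbd, Edn1, Bcat2, Lgals3, Sin3a, Nr3c1, Fkbp5, Tsc22d3, Mapk7 and Ctbp1 were named for their roles after their values were seen. Members and lists were chosen with earlier results of these data known. Replicate letters were tested as pairs by the correlation of deviations from group means. In the IL-1β group and that with both agents all 4 same-letter pairs were above 0.1 (r 0.38 to 0.80). Among arrays a to c there, same letters gave 0.38 to 0.53 and different letters 0.33 to 0.56, so pairing by letter was not shown. No groups were paired in the main model. Alternatives were other floors, an added constant, quantile and 75th percentile scaling, other filters, no variance trend, fits to the compared groups alone, a replicate block, a term for or removal of the replicate d arrays, removal of each array, averaged probe sets, and the methods' analysis of variance (p under 1e-04) with Tukey's test. The scripts were tested on simulated data.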

Additional observations from a re-analysis of the deposited data

Results flagged for a closer look

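Among the 48 groups of 4 arrays examined over the members' probe sets, 8 held an array far from the other 3, 4 of them replicate d arrays. Chance alone would give about 1 in 20 groups where values vary continuously, a rate that does not apply to the 6 below whose gap is set by the floor. Gaps were taken on log2 signals after raising low ones to the floor. No representative probe set was among them. The Klf2 set 1375248_at stood at 489 on IL-1β replicate d, against 65.8 to 83.1 on the other IL-1β arrays, a gap of 0.883 of the group's range on that log2 scale. The Klf5 set 1385961_at stood at 19.9 on IL-1β replicate c, against 51.6 to 56.4, a gap of 0.914. In the other 6 the gap was 1, because the other arrays were at or under the floor. These were Klf2 1386040_at (12.2 on IL-1β replicate b), Klf2 1394068_x_at (9.25 on IL-1β replicate c), Klf9 1390076_at (33.4 on IL-1β replicate d), Klf9 1387882_at (7.13 on replicate a with both agents) and Klf5 1398159_at (6.38 on IL-1β replicate d and 7.93 on replicate d with both agents).

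The response to IL-1β differed with and without glucosamine for 4 members by the interaction in limma. With minus without glucosamine, the log2 difference of responses was 1.96 for Klf2, 0.48 for Klf3, -0.98 for Klf9 and -1.58 for Klf15.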

How the results depend on the processing

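Over 54 member results and 1494 recomputed values, none that was called changed direction, 73 lost and 20 gained the call, and 11 of the 26 called results passed under every alternative run for them (28, or 26 for the interaction). The methods' test called 3 members for IL-1β against control, 2 for glucosamine, 3 for both agents against control, 2 for both agents against glucosamine and 4 for both agents against IL-1β. It called Klf5, Klf6, Klf9, Klf10 and Klf13 in none of these comparisons. For glucosamine, quantile normalization gave 3 and the fit with the replicate block gave 3, where Klf5 and Klf9 were lost. For both agents against glucosamine, a term for the replicate d arrays gave 2 (Klf2 and Klf4) and their removal gave 1 (Klf4). Averaging the probe sets of a gene left 1 called interaction (Klf15). Removal of single arrays gave 4 to 5 members for IL-1β, 1 to 6 for glucosamine (1, Klf2, without glucosamine replicate b, and 3 without any 1 control array, glucosamine replicate a or replicate a with both agents), 4 to 5 for both agents against control, 0 to 1 for both agents against glucosamine (Klf4 without IL-1β replicate d, Klf13 without replicate b with both agents), 7 to 8 for both agents against IL-1β and 3 to 4 interactions. Quantile normalization moved the median of all probe sets in IL-1β against control from 0.10 to 0 on the log2 scale. Replicate letters were shared between groups, but only 7 of 16 same-letter pairs of arrays had deviations correlated above 0.1 (r from -0.17 to 0.80). Of 13 arrays, 6 matched their own letter best, so pairing by letter was not shown and the main model had none. For both agents against IL-1β, the replicate block changed no member call but that of Klf13. Where calls changed, the cause was not tested. Of 996 recomputed counts over the gene lists, 115 moved by more than 1.5 times. Low signals near the floor limit the 5 member probe sets that lie close to it in every group. Some arrays of Klf2 1386041_a_at, Klf2 1394068_x_at and Klf5 1385961_at were at or under it too.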
